A study of Rattus norvegicus with 20 samples.

Results

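The adenosine system was followed through 8 genes: the receptor genes Adora1, Adora2a, Adora2b and Adora3, the ectoenzyme gene Nt5e, the adenosine kinase gene Adk, and the nucleoside transporter genes Slc29a1 and Slc29a2. They are 8 of 15351 genes that could be named on the array, and were represented by 10 of its 41012 gene probes. Every probe that the array files named for one of these genes was taken, and the Nt5e probe, listed under the older name Nt5, was matched by its transcript accession. The set was selected on measured values: at day 7 the ratio of sprouting to non-sprouting neurons was low with one Adora1 probe and near 0 with the other. Day 7 ratios are therefore given as a description, with no test. The tests concern the day 21 ratio, measured in a separate cohort, and the mean signal of both neuron pools. The day 21 fit took its residual spread from the animals of both days, so the day 7 ratios entered its standard errors; values from the day 21 animals alone are given where a member had an unadjusted p under 0.05.

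Adenosine forms outside cells when released ATP is broken down, and its level rises in ischaemic brain. The Gi-coupled receptor encoded by Adora1 lowers neuronal excitability and transmitter release, whereas the Gs-coupled receptors encoded by Adora2a, which is abundant in striatal projection neurons, and by Adora2b raise cAMP. The receptor encoded by Adora3 also couples to Gi. CD73, the product of Nt5e, makes adenosine from AMP at the cell surface, equilibrative transporters carry it across the membrane, and adenosine kinase removes it inside cells.

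The samples were neurons taken by laser capture from the peri-infarct cortex of 10 rats aged 2 yr after stroke; the labels used here give no strain or sex. The tracer cholera toxin B was injected into the same cortical site on 2 occasions, as a different fluorescent conjugate each time, with 7 days or 21 days between injections in separate cohorts of 5 animals. Capture followed 7 days after the later injection. From each animal, about 300 neurons labelled sprouting and about 300 labelled non-sprouting were pooled and their RNA was put through 2 rounds of T7 amplification; no uninjured or untraced animal entered these comparisons. Each animal gave 2 two-colour Agilent arrays, one with sprouting neurons in Cy5 (called forward here) and a dye swap with them in Cy3. Both arrays were averaged, so that n counts animals, and a log2 ratio above 0 means more signal in the sprouting pool. In pooled neurons, fewer cells that express a gene and less RNA per cell cannot be told apart.

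The 20 arrays differed in quality. The correlation across probes between the forward and swap ratios of an animal had its lowest value, 0.0464, in replicate 4 of day 21 and its highest, 0.891, in replicate 1 of day 7. The share of probes well above background ran from 52.1% to 94.6% per animal in the sprouting pool and from 68.3% to 95.3% in the non-sprouting pool. Day 21 replicates 4 and 5, the animals of the last of 5 scan batches, stood apart in signal level. All 12 neuronal markers looked up were well above background on more than 10 of the 20 arrays in both pools, and so were all 10 astrocyte, all 10 oligodendrocyte and all 13 microglial markers.

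Of the 10 probes, 9 passed the filter on dim probes and were tested among 34226. The Slc29a2 probe did not pass. No member probe was saturated on any array. At day 21 no member passed the test between sprouting and non-sprouting neurons (limma, Benjamini-Hochberg adjusted p of 0.917 to 0.998 for the 9 probes), against a background of 0 of 34226 probes, or 0%, called; the smallest adjusted p over all probes was 0.713, and 1626 probes had an unadjusted p below 0.05. Adora2b was above 0 and Nt5e below 0 in all 5 animals at day 21, and both had unadjusted p-values under 0.05. Of all probes with values, 2.87% were above 0 and 3.39% below 0 in 5 of 5 day 21 animals.

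**Figure D1:**
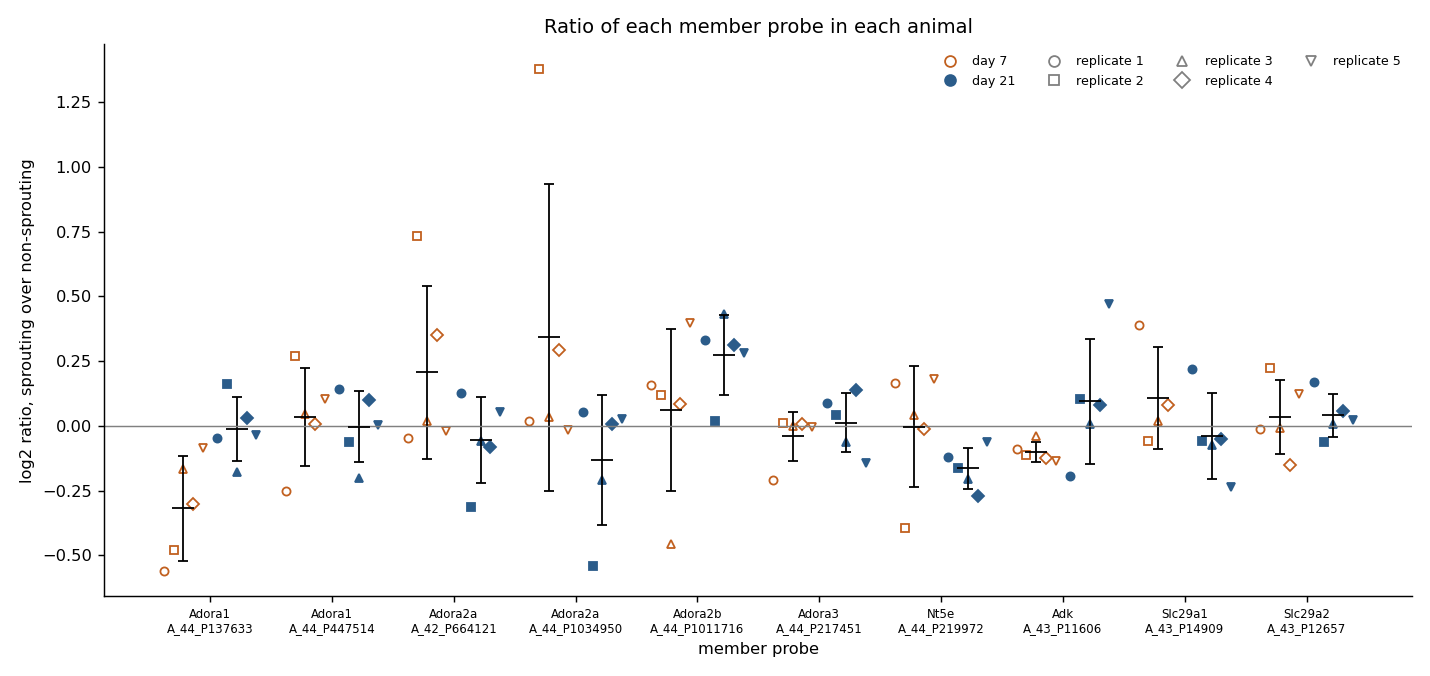
Log2 ratio of sprouting over non-sprouting neurons (vertical axis) for the 10 member probes (horizontal axis) in each animal at day 7 (open) and day 21 (filled); marker shapes are replicates, and black bars are the mean ± SD over animals. Day 7 replicate 2 stands far above the other animals for both Adora2a probes, and the day 21 animals lie above 0 for Adora2b and below 0 for Nt5e.

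Adora1, the inhibitory receptor of cortical neurons, had probes A_44_P137633 and A_44_P447514, both assigned to the same transcript. At day 7 the ratio of A_44_P137633 was -0.56, -0.48, -0.17, -0.30 and -0.084 in replicates 1 to 5, with a mean of -0.32 ± 0.20 (SD, n = 5). All 5 animals were below 0, as were 9 of 10 arrays; the exception was the forward array of replicate 5, at 0.0072. Having 5 of 5 animals below 0 at day 7 was seen in 5.99% of all probes with values. Replicates 1 and 2, the lowest, had the widest ratios of the day 7 animals over tested probes, with SDs of 0.37 and 0.27. Replicates 3 to 5 had SDs of 0.14 to 0.15. Median ratios of the cell type marker lists ran from -0.20 (striatal projection neurons) to 1.11 (blood cells) in replicate 1. In replicate 2 they ran from -0.56 (oligodendrocytes) to 0.85 (striatal), against -0.16 to 0.26 in replicates 3 to 5. Their part in the Adora1 ratio was not tested.

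The day 7 forward arrays gave -0.48, -0.27, -0.097, -0.25 and 0.0072 for A_44_P137633, and the dye-swap arrays -0.65, -0.68, -0.24, -0.35 and -0.18. In every animal the swap array read lower than the forward array, so the mean was -0.22 on forward and -0.42 on swap arrays. The sign was the same in both orientations, and the size differed between them.

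A_44_P447514 did not show this at day 7. Its ratio was -0.25, 0.27, 0.047, 0.0083 and 0.10, with a mean of 0.036 ± 0.19 (SD, n = 5). Forward arrays read -0.17, 0.46, 0.031, -0.013 and 0.064, and swap arrays -0.33, 0.081, 0.064, 0.029 and 0.14. Replicate 1 alone was low on both of its arrays with both probes. Replicate 2, the highest animal, had this probe not well above background in both pools and on both arrays.

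Within each day 7 animal, A_44_P137633 lay below A_44_P447514 by -0.31, -0.75, -0.21, -0.31 and -0.19 in replicates 1 to 5, a mean difference of -0.35 ± 0.23 (SD, n = 5). This gap is part of what selected the genes and was not tested. At day 21 the same difference was -0.19, 0.22, 0.023, -0.066 and -0.039, with a mean of -0.0094 ± 0.15 (SD, n = 5). It had no common sign, and an exact two-sided sign-flip test over the 5 animals gave p = 0.812, where the smallest p that 5 animals allow is 0.0625.

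Neither probe passed the test between the neuron pools at day 21. A_44_P137633 read -0.047, 0.16, -0.18, 0.032 and -0.034, a mean of -0.013 ± 0.12 (SD, n = 5; limma SE 0.071, adjusted p = 0.992). A_44_P447514 read 0.14, -0.062, -0.20, 0.098 and 0.0051, a mean of -0.0036 ± 0.14 (limma SE 0.070, adjusted p = 0.998). For both probes animals lay on both sides of 0. By array, A_44_P137633 ranged from -0.20 to 0.21 at day 21, and A_44_P447514 from -0.51 on the swap array of replicate 3 to 0.20 on that of replicate 1. For A_44_P137633 all 5 day 7 animals were below 0 and the day 21 animals lay between -0.18 and 0.16; whether the days differ was not tested, because the day 7 values selected the genes.

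**Figure D2:**
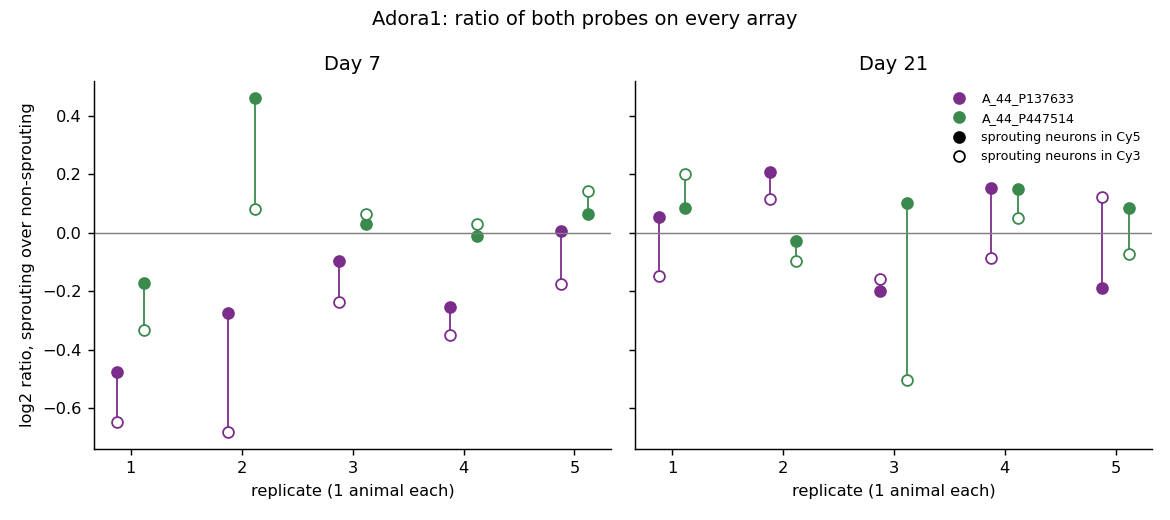
Log2 ratio of both Adora1 probes (colours) on every array, by animal, at day 7 (left) and day 21 (right); filled circles are arrays with sprouting neurons in Cy5, open circles the dye-swap arrays, and a line joins both arrays of an animal. The day 7 circles of A_44_P137633 lie below 0 except the forward array of replicate 5, at 0.0072, while those of A_44_P447514 lie on both sides of 0.

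The signal of A_44_P137633 was well above background on all 10 day 7 arrays in both pools. Its normalised log2 level at day 7 was 9.25, 9.41, 9.51, 9.43 and 9.54 in the sprouting pools and 9.81, 9.88, 9.67, 9.74 and 9.62 in the non-sprouting pools. The lowest non-sprouting pool lay above the highest sprouting pool. These are the values behind the ratio that selected the genes, and the share of all probes with such a gap was not counted. At day 21 both pools averaged about the same, 9.32 ± 0.49 and 9.33 ± 0.49 (SD, n = 5), below the day 7 non-sprouting mean of 9.75 ± 0.11 and the day 7 sprouting mean of 9.43 ± 0.11, but with day 21 animals spread from 8.62 to 9.87. The order of these 4 means is therefore not resolved beyond the spread of the day 21 animals.

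A_44_P447514 was well above background on 8 of 10 day 7 arrays in each pool, and at day 21 on 7 arrays in the sprouting and 9 in the non-sprouting pool. Its day 7 level was 6.96 ± 0.18 in sprouting and 6.92 ± 0.31 in non-sprouting neurons (SD, n = 5). At day 21 it was 7.45 ± 0.62 and 7.45 ± 0.58. The 2 day 21 animals of the last scan batch were the highest, with 8.37 and 7.79 in sprouting pools against 6.92 to 7.23 in the other animals.

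Over the 10 animals the Pearson correlation between the ratios of the Adora1 probes was 0.131, and 0.569 without day 7 replicate 2, the animal with A_44_P447514 not well above background; both probes share the same arrays and RNA, 5 of the animals are those whose values selected the genes, and the correlation is a description. The Adora2a probes gave 0.959 and 0.903 by the same measure. The genes whose ratio followed each Adora1 probe most closely over the 10 animals, among 13538 named genes, had no member in common: Gsta1 (r = 0.935), Or52n1 (0.935), Cacna1i (0.923), Fscn2 (0.922) and Olig1 (0.901) for A_44_P137633, and Wfdc3 (0.921), Clcf1 (0.910), Kcnk2 (0.909), Cfap70 (0.908) and Brinp3 (0.907) for A_44_P447514. With so many genes and 10 animals that share arrays, coefficients of this size are a description of likeness only.

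Adora2a, the cAMP-raising receptor concentrated in striatal projection neurons, was high in the sprouting pool of 2 of the 5 day 7 animals. A_42_P664121 read -0.046, 0.73, 0.017, 0.35 and -0.019 at day 7, a mean of 0.21 ± 0.33 (SD, n = 5). A_44_P1034950 read 0.018, 1.38, 0.034, 0.29 and -0.015, a mean of 0.34 ± 0.59; the value of 1.38 rests on the swap array, because the forward spot carried an outlier mark. Replicate 2 was highest with both probes and replicate 4 next, while the other 3 animals lay near 0. Without replicate 2 the day 7 means were 0.076 and 0.083.

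Several markers of striatal projection neurons were high in replicate 2. The median ratio of a list of 8 such genes, all on the array and 6 of them well above background on more than 10 arrays in both pools, was -0.20, 0.85, -0.16, 0.053 and -0.032 in day 7 replicates 1 to 5. In replicate 2 the opioid precursor gene Penk was at 1.26, the orphan receptor gene Gpr6 at 1.31, the G protein regulator gene Rgs9 at 0.92 and the tachykinin gene Tac1 at 0.78. Gpr6 was as high in replicate 3, at 1.31, and at 0.76 in replicate 5, where Adora2a was near 0. The dopamine receptor genes Drd1 and Drd2 and Ppp1r1b, which encodes DARPP-32, were at 0.072, 0.038 and 0.025 in replicate 2. The summed linear signal of the list ran from 2856 to 7505 in the day 7 sprouting pools, from 3657 to 4624 in the non-sprouting pools, and at day 21 from 3080 to 5004 and from 3074 to 6189. The part of these genes in the Adora2a values was not tested.

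At day 21 neither Adora2a probe passed the test between the pools. A_42_P664121 read 0.13, -0.31, -0.058, -0.083 and 0.053, a mean of -0.055 ± 0.17 (SD, n = 5; limma adjusted p = 0.970). A_44_P1034950 read 0.052, -0.54, -0.21, 0.0086 and 0.025, a mean of -0.13 ± 0.25 (limma adjusted p = 0.951). Day 21 replicate 2 was lowest with both probes, and it was also the lowest of the day 21 animals for the striatal list, at -0.22 against -0.035 to 0.096 in the others. In the sprouting pool at day 21, the probes were well above background on 6 and 7 of 10 arrays.

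**Figure D3:**
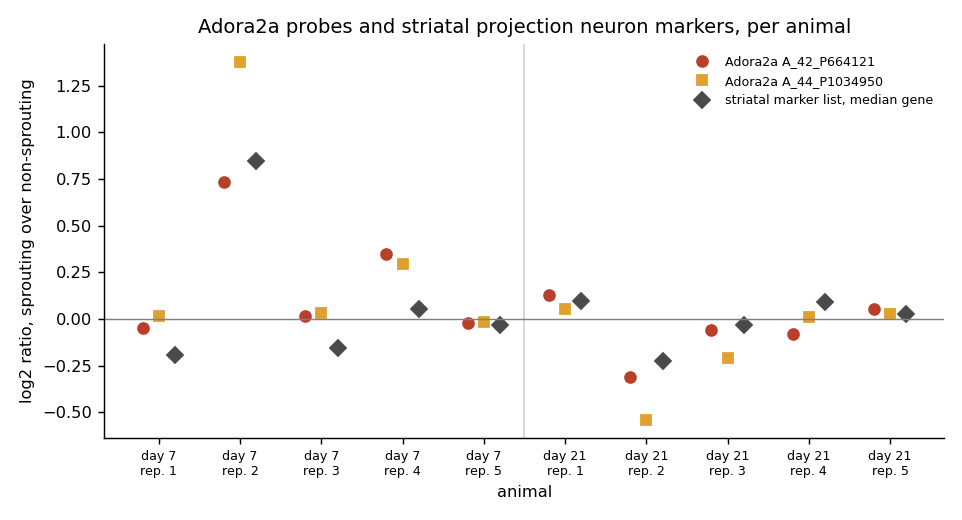
Log2 ratio of sprouting over non-sprouting neurons (vertical axis) of both Adora2a probes and the median ratio of 8 striatal projection neuron markers (diamonds) in each of the 10 animals. Day 7 replicate 2 is highest and day 21 replicate 2 lowest for both probes and the marker list.

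Adora2b, the low-affinity receptor that couples to Gs, was the member highest in sprouting neurons at day 21. Its ratio (A_44_P1011716) was 0.33, 0.019, 0.43, 0.31 and 0.28 in replicates 1 to 5, a mean of 0.28 ± 0.15 (SD, n = 5). It was above 0 in 5 of 5 animals and on all 10 arrays, with forward and swap means of 0.28 and 0.27. The limma SE was 0.10, the unadjusted p 0.0202 and the adjusted p 0.917, so the difference did not pass. With the day 21 animals alone in the fit, limma gave an unadjusted p of 0.00478 and an adjusted p of 0.98. Of all probes tested, 1.83% had an unadjusted p under 0.05 and were higher in sprouting neurons, and 2.87% of the probes with values were above 0 in 5 of 5 animals. Among the members it was the single probe that met either.

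The median ratio of 10 astrocyte markers was also above 0 in all 5 day 21 animals, at 0.087, 0.064, 0.11, 0.17 and 0.12. Single markers were mixed: S100b was at -0.25 in replicate 1 and Sox9 at -0.50 in replicate 4. Gja1 was above 0 in all 5 animals, from 0.053 to 0.35. The list's summed linear signal ran from 33470 to 36310 in the day 21 sprouting pools and from 27610 to 33460 in the non-sprouting pools. Its part in the Adora2b ratio was not tested. At day 7 Adora2b had no common direction, reading 0.16, 0.12, -0.45, 0.085 and 0.40, a mean of 0.060 ± 0.31 (SD, n = 5).

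Adora3, the remaining Gi-coupled receptor, had ratios close to 0 on both days. At day 7 (A_44_P217451) replicate 1 was at -0.21 and the other 4 animals lay between -0.0044 and 0.011. At day 21 the values were 0.087, 0.044, -0.062, 0.14 and -0.14, a mean of 0.013 ± 0.11 (SD, n = 5; limma adjusted p = 0.986). In day 7 replicate 1 the blood cell list, with 6 of its 7 genes on the array, had a median ratio of 1.11. The other day 7 animals lay between 0.0082 and 0.14. Within the list S100a8 was at -0.0076 in replicate 1. Microglia and macrophage markers were mixed in that animal: Lyz2 was at 4.2 and Trem2 at 2.0, but C1qa at -0.46. The median of those 13 markers was 0.11. The part of these lists in the Adora3 ratio was not tested.

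Nt5e, whose product CD73 makes extracellular adenosine, was lower in sprouting neurons in each day 21 animal. The ratio (A_44_P219972) was -0.12, -0.16, -0.20, -0.27 and -0.063, a mean of -0.16 ± 0.079 (SD, n = 5). It was below 0 on 9 of 10 arrays, with a mean of -0.090 on forward and -0.24 on swap arrays. The limma SE was 0.073, the unadjusted p 0.0489 and the adjusted p 0.917. With the day 21 animals alone, limma gave an unadjusted p of 0.0096 and an adjusted p of 0.98. Of all probes tested, 2.92% had an unadjusted p under 0.05 and were lower in sprouting neurons, and 3.39% of the probes with values were below 0 in 5 of 5 animals; Nt5e was the single member in either count. The median ratio of the 13 microglia and macrophage markers was also below 0 in all 5 day 21 animals, at -0.0046, -0.067, -0.071, -0.090 and -0.052, and the list's summed linear signal ran from 6856 to 9529 in the sprouting and from 7657 to 10000 in the non-sprouting pools. Within that list the macrophage marker Lyz2 read 0.042, -0.23, 0.48, 0.079 and 0.20. Medians below 0 were not particular to it. The endothelium list read -0.081, -0.13, -0.11, -0.14 and 0.016 at day 21. The neuron list read -0.063, -0.090, 0.058, -0.088 and -0.15, while the astrocyte list was above 0 in all 5 animals. The part of these lists in the Nt5e ratio was not tested. At day 7 Nt5e read 0.17, -0.39, 0.044, -0.011 and 0.18, a mean of -0.0024 ± 0.23, with 3 animals above and 2 below 0.

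Adk, which phosphorylates adenosine to AMP, was slightly below 0 in all 5 day 7 animals. A day 7 ratio below 0 in 5 of 5 animals was seen in 5.99% of all probes with values. The values (A_43_P11606) were -0.091, -0.11, -0.038, -0.13 and -0.14, a mean of -0.10 ± 0.039 (SD, n = 5). The small spread between animals hid a difference between dye orientations: the forward arrays averaged -0.024 and the swap arrays -0.18. At day 21 it read -0.19, 0.11, 0.0092, 0.081 and 0.47, a mean of 0.094 ± 0.24 (limma adjusted p = 0.917), with 4 of 5 animals above 0. Leaving out replicate 5, the highest animal, gave 0.00063, and leaving out replicate 1 gave 0.17. The swap mean was again lower than the forward mean, by -0.15 at both days.

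The equilibrative transporters showed no common direction. Slc29a1, the main such transporter of the plasma membrane (A_43_P14909), read 0.39, -0.060, 0.017 and 0.080 in day 7 replicates 1 to 4, a mean of 0.11 ± 0.20 (SD, n = 4). Replicate 5 has no value because both of its spots carried an outlier mark. At day 21 it read 0.22, -0.057, -0.073, -0.049 and -0.24, a mean of -0.039 ± 0.16 (limma adjusted p = 0.970).

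Slc29a2, the second equilibrative transporter (A_43_P12657), was well above background on 5 of 10 sprouting and 6 of 10 non-sprouting arrays at day 7, and on 3 of 10 in each pool at day 21. Its ratio was -0.013, 0.22, -0.0097, -0.15 and 0.12 at day 7, and 0.17, -0.061, 0.0091, 0.059 and 0.025 at day 21. The means were 0.035 ± 0.14 and 0.040 ± 0.085 (SD, n = 5). With this signal, a difference between the pools was not measurable.

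The mean level over both pools was then compared between the cohorts. No probe passed (limma, 0 of 34226 called, or 0%, with a smallest adjusted p of 0.126), although 5681 had an unadjusted p under 0.05. Of those 5681, 4065 were lower at day 21, which is 11.9% of the 34226 probes tested. The median change of all probes was -0.072. Of the 9 member probes tested, 8 had a lower mean at day 21, where 39.5% of all probes were higher, and 3 of these, Nt5e, Adora3 and Slc29a1, had every day 21 animal below every day 7 animal, which held for 4.52% of all probes tested.

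Nt5e had log2 levels of 8.10, 7.80, 7.80, 7.78 and 7.88 at day 7 and 7.54, 7.47, 7.57, 7.16 and 6.89 at day 21. The change was -0.54 ± 0.14 (limma SE; unadjusted p = 0.00334, adjusted p = 0.144). Both pools were lower: the sprouting pools averaged 7.87 ± 0.22 at day 7 and 7.25 ± 0.28 at day 21, and the non-sprouting pools 7.87 ± 0.12 and 7.41 ± 0.31 (SD, n = 5).

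Adora3 had levels of 8.02, 7.90, 7.80, 7.98 and 8.14 at day 7 and 7.65, 7.66, 7.78, 7.19 and 6.95 at day 21, a change of -0.52 ± 0.16 (limma SE; unadjusted p = 0.00916, adjusted p = 0.182). Slc29a1 lay between 9.06 and 9.18 in the 4 day 7 animals with a value and read 8.84, 9.03, 8.71, 7.97 and 7.67 at day 21, a change of -0.67 ± 0.27 (unadjusted p = 0.0317, limma adjusted p = 0.262). For all 3 genes the lowest day 21 animals were replicates 4 and 5, of the last scan batch.

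Without those 2 animals, an alternative added after the data were seen, the changes were -0.34 for Nt5e, -0.27 for Adora3 and -0.26 for Slc29a1. Only scan batch 3 held animals of both days, namely day 7 replicates 4 and 5 and day 21 replicate 1. With scan batch as a block the changes were -0.29, -0.41 and -0.26, with limma unadjusted p of 0.149, 0.057 and 0.331. Over all probes 463 then had an unadjusted p under 0.05, in place of 5681, and none passed. The sign stayed negative and the size was smaller in both cases.

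The other members had no level change that passed. Adora2b was at -0.41 ± 0.29 (limma SE; adjusted p = 0.451), Adk at -0.50 ± 0.28 (adjusted p = 0.373), and the Adora2a probes at -0.10 ± 0.20 and -0.046 ± 0.25 (limma adjusted p = 0.782 and 0.926). The Adora1 probes had opposite signs, -0.26 ± 0.20 for A_44_P137633 and 0.51 ± 0.26 for A_44_P447514 (limma adjusted p = 0.485 and 0.344). In day 21 replicates 4 and 5, A_44_P137633 was at 9.02 and 8.63 against 9.48 to 9.79 in the other 3 animals, whereas A_44_P447514 was at 8.32 and 7.79 against 6.85 to 7.26. The probes therefore moved in opposite directions in the same 2 animals, and their levels lay closer together there. Without those animals the change of A_44_P137633 was 0.067, that of A_44_P447514 0.10, that of Adora2b 0.073, that of Adk -0.027, and those of the Adora2a probes 0.17 and 0.25.

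**Figure D4:**
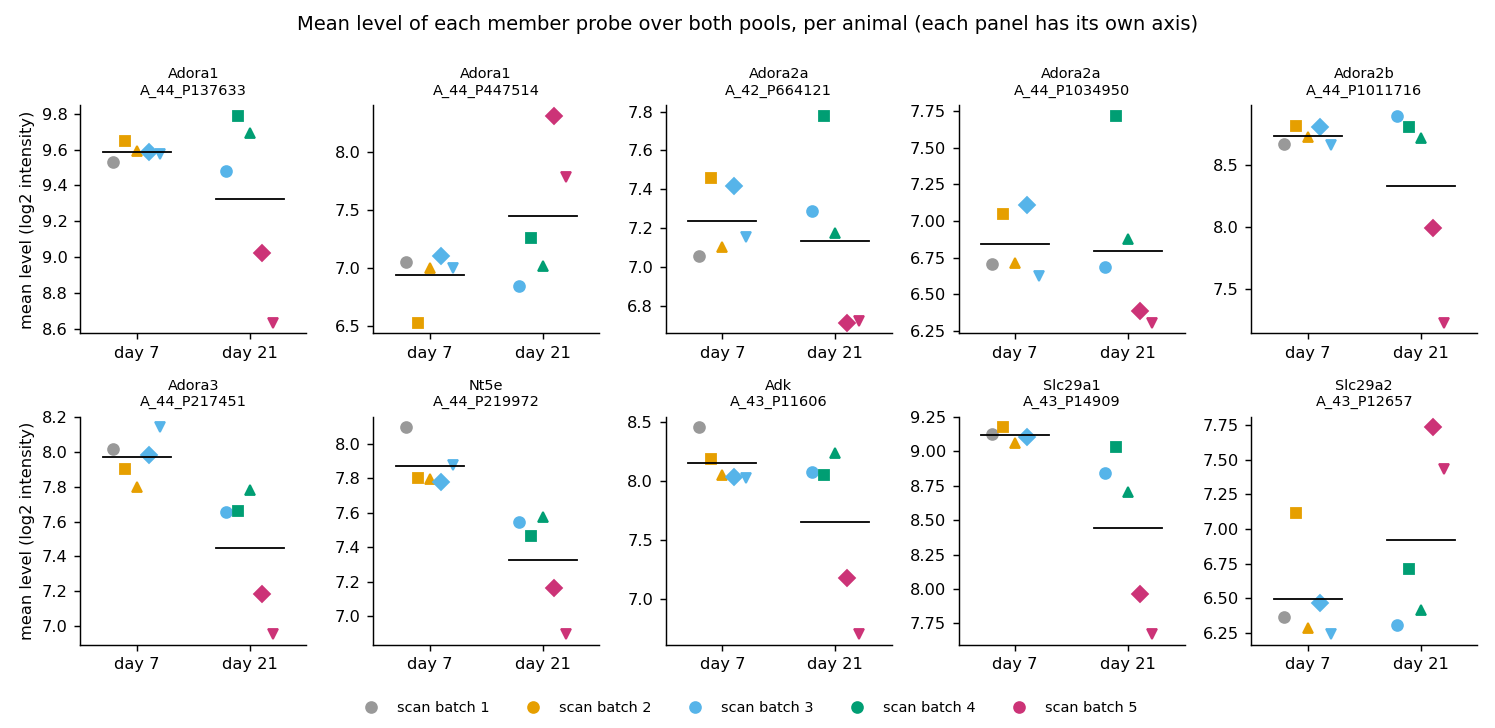
Mean normalised log2 level of each member probe over both pools (vertical axis, scaled per panel) in each day 7 and day 21 animal; shapes are replicates, colours are scan batches and black lines are group means. Nt5e, Adora3 and Slc29a1 have no day 21 animal as high as the lowest day 7 animal, and the 2 animals of scan batch 5 lie apart from the other day 21 animals, low for most probes and high for A_44_P447514 and Slc29a2.

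The wider adenosine pathway was read from a list of 93 genes in 5 roles, of which 88 were on the array and 81 were tested. None passed at day 21, and 3 higher and 3 lower genes of the 81 had an unadjusted limma p under 0.05. Of all probes tested, 1.83% were higher and 2.92% lower at that threshold. The median day 21 ratio was -0.0094 and 35 of 81 were above 0. All probes tested had a median of -0.00023, and 49.8% of them were above 0. The list's level change by day had a median of -0.11, with 48 of 81 lower, 14 at an unadjusted p under 0.05 and none passing; over all 34226 probes the median was -0.072, 39.5% were higher and 5681 had an unadjusted p under 0.05.

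Of the genes tested from the list for extracellular ATP and AMP breakdown, 3 of 9 were above 0 at day 21 and the median was -0.072. The genes with the smallest p were Entpd5 at -0.19 ± 0.27 and Entpd1, which encodes the ATP-hydrolysing ectoenzyme CD39, at -0.20 ± 0.33 (SD, n = 5). The other Entpd1 probes averaged 0.040 and -0.059, so the probes of this gene did not share a direction.

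Among genes of intracellular AMP and adenosine metabolism, where Adk acts, 8 of 16 were above 0. Ampd3, an AMP deaminase gene, was at 0.25 ± 0.21 (SD, n = 5) and above 0 in 4 of 5 animals (limma unadjusted p = 0.00348, adjusted p = 0.917). Ahcy, whose enzyme splits S-adenosylhomocysteine into adenosine and homocysteine, was at 0.10 ± 0.072 and above 0 in 5 of 5 animals (limma adjusted p = 0.917). At day 21, 2.87% of all probes with values were above 0 in 5 of 5 animals.

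Among transport genes, 6 of 9 were above 0. Gja1, which encodes the main gap junction protein of astrocytes, was at 0.20 ± 0.12 and above 0 in 5 of 5 animals (limma unadjusted p = 0.0046, adjusted p = 0.917); its other probe averaged -0.0085, and the gene is also one of the 10 astrocyte markers. Panx1, a channel through which ATP leaves cells, was at 0.13 ± 0.13 (SD, n = 5).

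Of the 14 P2 purine receptor genes on the array, 10 were tested. The mean day 21 ratio was above 0 in 0 of these 10, against 49.8% of all probes tested. The median was -0.11 and none had an unadjusted limma p under 0.05. By animal the genes were mixed: P2rx1, P2rx6 and P2ry14 were above 0 in 3 of 5 animals, and the others in 1 or 2. The lowest animal was at -1.43 for P2rx2 and at -1.14 for P2rx3. P2ry12, one of them, is also on the microglial list. The genes with the smallest p were P2rx3 at -0.23 ± 0.51 and P2rx1 at -0.15 ± 0.36 (SD, n = 5), both with an SD larger than the mean and with limma adjusted p = 0.917. The other P2rx3 probe averaged 0.063. Of the G proteins and effectors of the receptors, 18 of 37 were above 0. The 3 of 37 with an unadjusted limma p under 0.05 were all lower, where 2.92% of all probes tested were lower and 1.83% higher at that threshold. Those with the smallest p were Prkar1b, a regulatory subunit gene of protein kinase A, at -0.19 ± 0.21 and the cAMP phosphodiesterase gene Pde4a at -0.13 ± 0.14 (SD, n = 5).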

How the data were processed

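Spot intensity on a linear scale, background intensity and flags were deposited as written by Agilent Feature Extraction 9.1.3.1, per the file headers. The deposited log10 ratio of processed signals, per the file headers, and the log2 ratios of the authors' deposited table, normalised in a way the sources used here do not give, served as alternatives; 20 other columns in it stayed unused. Signals were corrected by normexp (offset 50) and loess within each array in limma 3.58.1 (R 4.3.3), with control spots at weight 0 and outlier-marked spots missing (11 to 4088 per array). Levels were then normalised by Aquantile. Dye-swap signs were turned and both arrays of an animal averaged. A probe entered the tests when 3 or more animals of 1 day had it well above background in 1 pool on both their arrays. Models were fitted over all 34226 such probes. The members and gene lists were chosen with earlier results of these data known. All member probes are named; of the pathway list, the 2 genes per role with the smallest day 21 p; and, per Adora1 probe, the 5 genes most alike. Intensity precision is limited by the number of arrays. Shared replicate numbers did not pair animals: the correlation of deviations ran from -0.18 to 0.045 for ratios and from -0.11 to 0.25 for levels. The value of 1 marker gene is not reported here. Probe sequences were not used here, and no coordinates are given.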

Additional observations from a re-analysis of the deposited data

Results flagged for a closer look

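Of 40 groups of 5 (or 4) animals checked, 4 for each member probe, 4 held an animal far from the rest; chance marks about 5% of groups. At day 7, replicate 2 had an Adora2a ratio of 1.38 with A_44_P1034950, where the next animal was at 0.29; the value comes from the swap array, and A_42_P664121 was also highest in this animal. Its mean level was 6.53 for Adora1 A_44_P447514, where the next animal was at 7.00 and the probe was not well above background on either array. Its Slc29a2 level was 7.12, where the next was 6.47 and the probe failed the filter on dim probes. Day 7 replicate 1 had an Adora3 ratio of -0.21, where the next was -0.0044.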

How the results depend on the processing

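At day 21 no member passed under any alternative run. Signs held in 196 of 212 member and alternative pairs. In many of these pairs the sign could not change, because the alternative left the day 21 estimate as it was. Examples are leaving out a day 7 animal and changing which probes were tested. The count therefore overstates how stable the signs were. The number of probes called went from 0 to 2, neither a member, with the 20 arrays entered singly with a dye effect. A_44_P137633 (Adora1) turned to 0.0052 on forward arrays alone and ran from -0.057 to 0.028 when animals were left out in turn. A_44_P447514 turned to 0.015 without background correction, 0.020 with Feature Extraction ratios and 0.078 on forward arrays, and ran from -0.040 to 0.046. Adora2a A_42_P664121 turned to 0.035 on swap arrays and ran from -0.10 to 0.0097. Adora3 turned to -0.0068 without background correction and -0.0055 on swap arrays, and ran from -0.019 to 0.052. Slc29a1 ran from -0.10 to 0.010. The difference between the Adora1 probes turned to 0.054 on swap arrays and ran from -0.068 to 0.036. Adora2b (0.22 to 0.34) and Nt5e (-0.25 to -0.090) kept their sign in every alternative run, with unadjusted p from 0.0019 to 0.10 and from 0.0039 to 0.24.

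For levels, signs held in 140 of 153 pairs. Leaving out day 21 replicate 1 raised the probes called from 0 to 719, none a member; leaving out any other single animal gave 0, so the range was 0 to 719. The Adora2a probes ran from -0.26 to 0.0017 and from -0.28 to 0.077. With scan batch as a block, A_44_P447514 turned to -0.21, A_42_P664121 to 0.0022, Adora2b to 0.16 and Adk to 0.049. Chosen after the data were seen, leaving out the last scan batch's 2 animals turned the levels of A_44_P137633 to 0.067, A_42_P664121 to 0.17, A_44_P1034950 to 0.25 and Adora2b to 0.073, and the day 21 ratios of Adk to -0.026 and Slc29a1 to 0.030. Centring each channel on its median moved the median change of all probes from -0.072 to -0.20, and member signs stayed. With the replicate number as a replicate block, 0 probes were called for ratios (1241 at an unadjusted p under 0.05) and 0 for levels (5299), and no member's call changed. With Feature Extraction ratios, the day 7 ratio of Adk moved from -0.10 to -0.14 and those of the Adora2a probes from 0.21 to 0.47 and from 0.34 to 0.67; at day 7, Slc29a1 went from 0.11 to 0.012 without replicate 1, and Adora2b from 0.060 to -0.023 without replicate 5. The cause of these changes was not tested. Dim signal limits Slc29a2, A_44_P447514 and Adora2a at day 21.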
